A study of Mus musculus with 6 samples.

Results

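The genes described here are the oligoadenylate synthetases (OAS), a family of 8 mouse genes chosen by symbol: Oas1a, Oas1b, Oas1c, Oas1g, Oas2, Oas3, Oasl1 and Oasl2. The family was chosen by symbol with earlier results of these data known. Of these 8 genes, 7 had a probe set whose annotation named them alone, among 19938 genes tested in all. Oas1g shared its only probe set with Oas1a, and that row was kept apart. Where a gene had several probe sets, the brightest by its mean over the 6 arrays was to be used, but each of the 7 genes had 1, so no measured value chose a row.

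The samples were KSL cells, the cKit+Sca1+Lin- fraction of mouse blood-forming cells that holds stem cells and early progenitors, from mice backcrossed to C57BL/6 for 3 generations or more. The DKO samples carried Runx1 fl/fl, Runx3 fl/fl and Mx1-Cre+, and the WT samples were littermates with both floxed genes, Runx1 fl/fl and Runx3 fl/fl, but Mx1-Cre-. There were 3 samples in each group, labelled as biological replicates. The protocol, given for all samples, states 7 injections of 600 µg pIpC every other day, begun at an age of 4 weeks, while the sample descriptions call the cells untreated. pIpC mimics double-stranded RNA and induces interferon, and the Mx1 promoter that drives Cre responds to interferon. How long after the last injection cells were taken is not stated in the labels. The WT samples were pools of 3 mice and pooling of the DKO samples is not stated, although the design text counts 6 mice in all. Since WT mice lacked Cre, the deletion and the transgene cannot be told apart.

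OAS enzymes bind double-stranded RNA and join ATP into short oligoadenylate chains. These chains set off the cutting of cellular and viral RNA. The genes are switched on by interferon through factors such as Stat2 and Irf9, which act at the interferon-stimulated response element of their promoters. In blood-forming tissue, interferon is known to rouse stem cells from rest, and pIpC acts through the same route.

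The OAS genes lie in 2 groups on mouse chromosome 5 in the RefSeq annotation of GRCm38.p6: Oasl2 and Oasl1 with the lncRNA gene Gm13822 between them, and a longer run from Oas2 and Oas3 through the Oas1 genes to Oas1d. RefSeq lists Oas1b, in this C57BL/6J assembly, as a transcribed pseudogene. Promoter windows of 300 bases, 250 before and 50 after the gene start, were in the RefSeq promoter table used here for 6 of the 8 members, and for 8 of 12 OAS genes with the paralogs Oas1d, Oas1e, Oas1f and Oas1h. The 200 bases up to the start are printed for the 6 members, since 4 of them hold the core of the interferon-stimulated response element and the pair of Oasl genes does not. The windows are chr5:120907526-120907725 (-) for Oas1a, chr5:120887614-120887813 (-) for Oas1g, chr5:120812515-120812714 (-) for Oas1c, chr5:120777660-120777859 (-) for Oas3, chr5:114923040-114923239 (+) for Oasl1 and chr5:114896734-114896933 (+) for Oasl2. Capitals mark the response element core GAAANNGAA, or its reverse complement, and in Oasl2 the Runx motif TGTGGT.
Oas1a: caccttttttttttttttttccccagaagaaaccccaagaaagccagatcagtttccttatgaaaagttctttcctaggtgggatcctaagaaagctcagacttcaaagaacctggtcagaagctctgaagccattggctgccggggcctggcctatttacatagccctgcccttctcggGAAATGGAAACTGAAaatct
Oas1g: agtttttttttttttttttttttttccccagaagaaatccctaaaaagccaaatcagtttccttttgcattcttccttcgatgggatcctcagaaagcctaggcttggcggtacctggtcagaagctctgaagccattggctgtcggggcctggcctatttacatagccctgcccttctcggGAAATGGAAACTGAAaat
Oas1c: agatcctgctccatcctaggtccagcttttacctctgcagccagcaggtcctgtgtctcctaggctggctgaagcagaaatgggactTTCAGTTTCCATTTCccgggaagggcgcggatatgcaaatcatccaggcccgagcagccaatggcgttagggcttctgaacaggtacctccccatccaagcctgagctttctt
Oas3: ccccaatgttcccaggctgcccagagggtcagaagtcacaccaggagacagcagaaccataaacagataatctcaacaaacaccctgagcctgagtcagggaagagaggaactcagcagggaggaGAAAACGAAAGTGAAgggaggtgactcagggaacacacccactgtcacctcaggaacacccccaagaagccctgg
Oasl1: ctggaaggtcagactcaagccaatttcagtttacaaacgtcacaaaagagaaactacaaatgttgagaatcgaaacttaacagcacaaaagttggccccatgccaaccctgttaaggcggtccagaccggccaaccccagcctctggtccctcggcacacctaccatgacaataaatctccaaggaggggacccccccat
Oasl2: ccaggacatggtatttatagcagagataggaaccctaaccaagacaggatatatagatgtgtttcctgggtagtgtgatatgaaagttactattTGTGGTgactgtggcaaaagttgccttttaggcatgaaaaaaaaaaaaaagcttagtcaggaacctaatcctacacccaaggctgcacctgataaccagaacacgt

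The core GAAANNGAA was searched on both strands and occurred in 4 of the 8 OAS windows, those of Oas1a, Oas1g, Oas1c and Oas3, beside 8.56% of 32851 RefSeq windows of the same length. Each of the 4 held 2 matches that overlapped by 3 bases. In Oas1a they lay 20 to 6 bases before the start and in Oas1g 18 to 4 bases before it. The Oas3 matches lay 75 to 61 bases before the start, and those of Oas1c lay on the opposite strand, 113 to 99 bases before it. The windows of Oas1a and Oas1g were 83.4% identical over the printed bases. The Runx motif TGTGGT, also searched on both strands, occurred in 1 of the 8 windows, that of Oasl2, 106 to 101 bases before the start, beside 16.8% of all windows. The gamma-activated site TTCNNNGAA, which reads the same on both strands, occurred in that of Oas1a, 98 to 90 bases before the start, beside 8.3%. A match describes these letters and is no measured binding.

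Of the 7 measured members, 5 rose in the DKO samples: Oas1a, Oas1b, Oas1c, Oas2 and Oasl2, by 1.45-fold to 1.64-fold. None of the 7 fell, at an unadjusted p under 0.05 either, and Oas3 and Oasl1 did not pass. A gene passed where its adjusted p, from a limma fit of log2 signals across all 19938 genes with Benjamini-Hochberg adjustment, was under 0.05. In that fit 9.71% of all genes rose and 7.69% fell, 1936 and 1533 genes; with quantile normalisation 1542 rose and 1790 fell, and with the trend over gene span and signal removed 1490 and 1516, and 5 members rose under both. The DKO values of the same 5 genes lay wholly above the WT values, which held for 16.2% of all genes; 19.6% lay wholly below and 35.8% did either. The median difference of the 7 members was 0.54 on the log2 scale, beside -0.04 over all genes. Since the members were chosen by symbol with earlier results of these data known, their share and median are descriptions. The share of genes called was larger among brighter genes. Without the dimmest 50% of genes 1995 rose and 1269 fell, a larger share than over all genes, and 5 members rose. These are bulk samples, in which more cells of a type and more RNA per cell cannot be told apart.

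**Figure D1:**
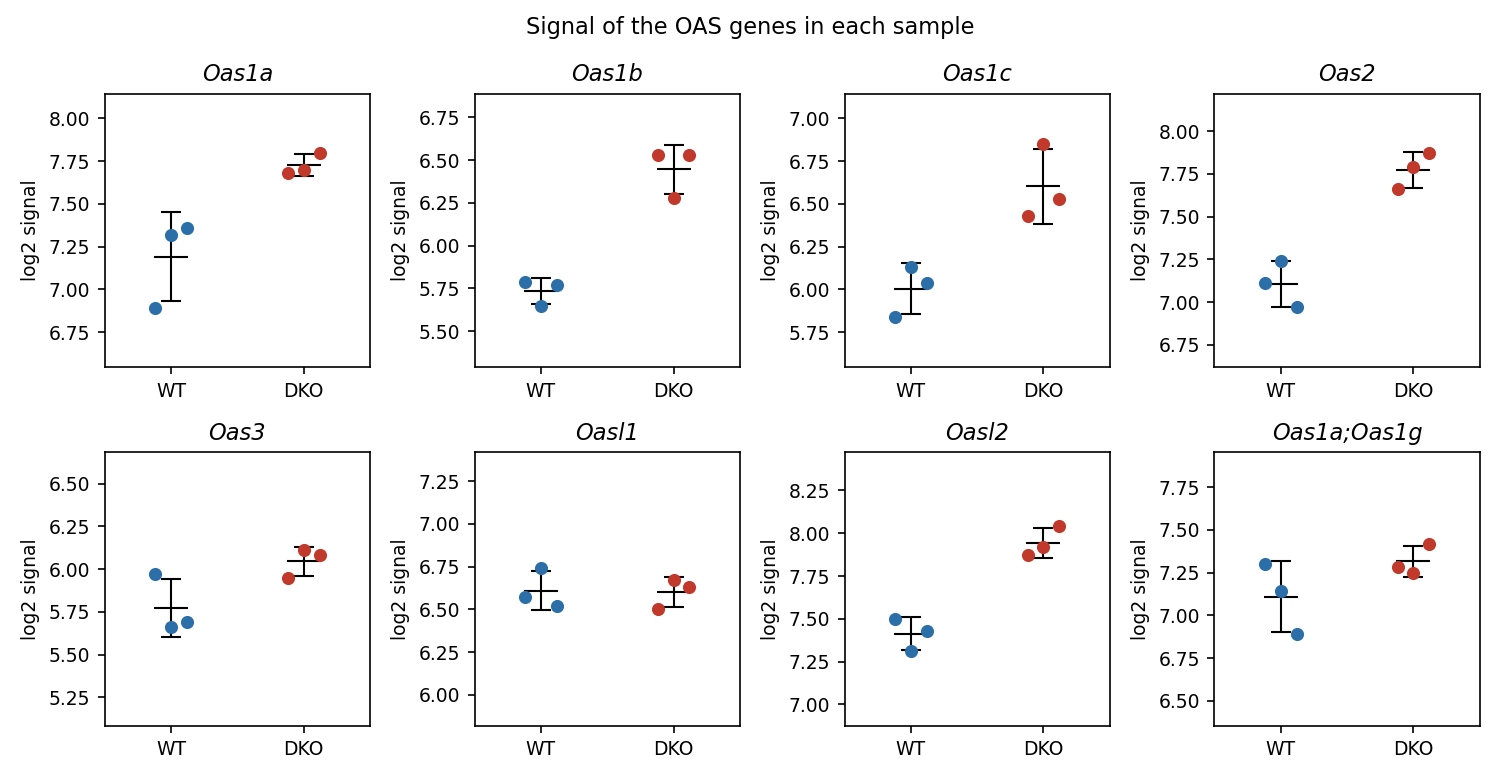
Log2 signal of 7 OAS genes and of the probe set shared by Oas1a and Oas1g, in 3 WT (blue) and 3 DKO (red) samples; points are samples, bars are the mean and SD, and each panel spans the same height. The DKO points lie above all WT points for Oas1a, Oas1b, Oas1c, Oas2 and Oasl2 and overlap them in the other panels.

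Oas1a encodes a catalytically active synthetase. Its signal was 7.68, 7.70 and 7.80 in DKO replicates 1, 2 and 3 and 6.89, 7.32 and 7.36 in WT replicates 1, 2 and 3. The DKO values lay close together and above every WT value, and WT replicate 1 stood below the other WT samples. The difference was 0.54 (SE 0.129, 1.45-fold, adjusted p = 0.0191). It no longer passed without DKO replicate 1, 2 or 3 (adjusted p = 0.0526, 0.0535 and 0.0762) and when all 35556 probe sets were tested (0.0594), in a range of 0.0126 to 0.0762 over 17 alternatives. Without WT replicate 1 the difference was 0.39.

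The probe set shared by Oas1a and Oas1g, both active synthetases with near-identical sequences, gave a weaker picture. Its signal was 7.28, 7.25 and 7.42 in DKO and 7.30, 7.14 and 6.89 in WT. The highest WT value lay above 2 of the DKO values, and WT replicate 3 was the lowest. The difference of 0.20 did not pass (95% interval -0.09 to 0.50, adjusted p = 0.335 over all probe sets, of which 6.98% rose and 4.63% fell). Whether the Oas1a row and the shared row changed unequally was asked of their difference within each array, which was 0.41 ± 0.04 in DKO and 0.08 ± 0.45 in WT (SD, n = 3). An exact two-sided permutation test of these values gave p = 0.4, or 0.4 after adjustment over 3 such tests. No value for Oas1g alone can be given.

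Oas1b had the largest difference of the 7 members. It is the gene behind resistance to flaviviruses in mice, and in most laboratory strains a premature stop leaves it without that function. Its signal was 6.53, 6.28 and 6.53 in DKO and 5.79, 5.65 and 5.77 in WT. The groups were separated by 0.50, more than the range within either group. The difference was 0.71 (SE 0.0989, 1.64-fold, adjusted p = 0.00146), larger than that of 97.2% of all genes.

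Oas1c, an Oas1 paralog for which no synthetase activity is known, was at 6.43, 6.85 and 6.53 in DKO and 5.84, 6.13 and 6.04 in WT. All 3 DKO values lay above the WT values, with DKO replicate 2 the highest. The difference was 0.60 (SE 0.126, 1.52-fold, adjusted p = 0.0106), and it was 0.48 without DKO replicate 2, where it still passed.

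The 4 other Oas1 paralogs did not pass in limma, nor at an unadjusted p under 0.05. Signals of Oas1d, Oas1e and Oas1h were under each array's lower quartile, and those of Oas1f below every array's median. Oas1d, which is known from oocytes, differed by 0.19, Oas1e by 0.14, Oas1h by 0.23 and Oas1f by -0.21, with adjusted p of 0.226 to 0.323. Their values overlapped between the groups, except for Oas1e, whose DKO values of 3.33 to 3.42 lay just above the WT values of 3.14 to 3.30.

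Oas2, which carries a repeated synthetase unit and makes longer chains than Oas1 enzymes, was at 7.66, 7.79 and 7.87 in DKO and 7.11, 7.24 and 6.97 in WT. The lowest DKO sample stood 0.42 above the highest WT sample. The difference was 0.67 (SE 0.102, 1.59-fold, adjusted p = 0.0023), and it passed in each of 17 alternatives, at 0.60 to 0.74. Oas3, its neighbour, encodes the largest protein of the family, which binds long double-stranded RNA. Its signal was 5.95, 6.11 and 6.08 in DKO and 5.97, 5.66 and 5.69 in WT. WT replicate 1 was just above the lowest DKO sample, and the other WT samples were lower. The difference of 0.27 did not pass (95% interval 0.03 to 0.51, adjusted p = 0.118), and it passed at 0.37 without WT replicate 1 (adjusted p = 0.0323; the alternatives gave 0.0323 to 0.271).

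The excess of the Oas2 over the Oas3 signal within an array was 1.73 ± 0.05 in DKO and 1.33 ± 0.23 in WT (SD, n = 3). Its values did not overlap between the groups, and the exact two-sided permutation p was 0.1, the smallest that 3 samples against 3 can give, or 0.15 after adjustment over 3 tests. This test could not reach 0.05 at any values, so it does not settle whether Oas2 and Oas3 changed unequally.

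The Oasl genes join an OAS unit to ubiquitin-like repeats. Oasl2, which keeps synthetase activity, was at 7.87, 7.92 and 8.04 in DKO and 7.50, 7.31 and 7.43 in WT. The groups were 0.38 apart and each spanned less than that. The difference was 0.53 (SE 0.0923, 1.45-fold, adjusted p = 0.00427), and it passed in each of 17 alternatives, at 0.46 to 0.57.

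Oasl1 lacks synthetase activity and is known to hold back translation of Irf7, the factor that amplifies interferon production. Its signal was 6.50, 6.67 and 6.63 in DKO and 6.57, 6.74 and 6.52 in WT. The groups lay on top of each other. The difference was -0.01 (95% interval -0.22 to 0.21, adjusted p = 0.967), an interval that leaves out a rise of the size seen for Oasl2. The sign of so small a difference turned with median centring, cyclic loess and other settings. The excess of the Oasl2 over the Oasl1 signal was 1.37, 1.24 and 1.41 in DKO and 0.93, 0.57 and 0.91 in WT, without overlap. The exact two-sided permutation p was again 0.1 (0.15 after adjustment over 3 tests), the smallest this test can give. It does not settle whether Oasl2 and Oasl1 changed unequally.

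**Figure D2:**
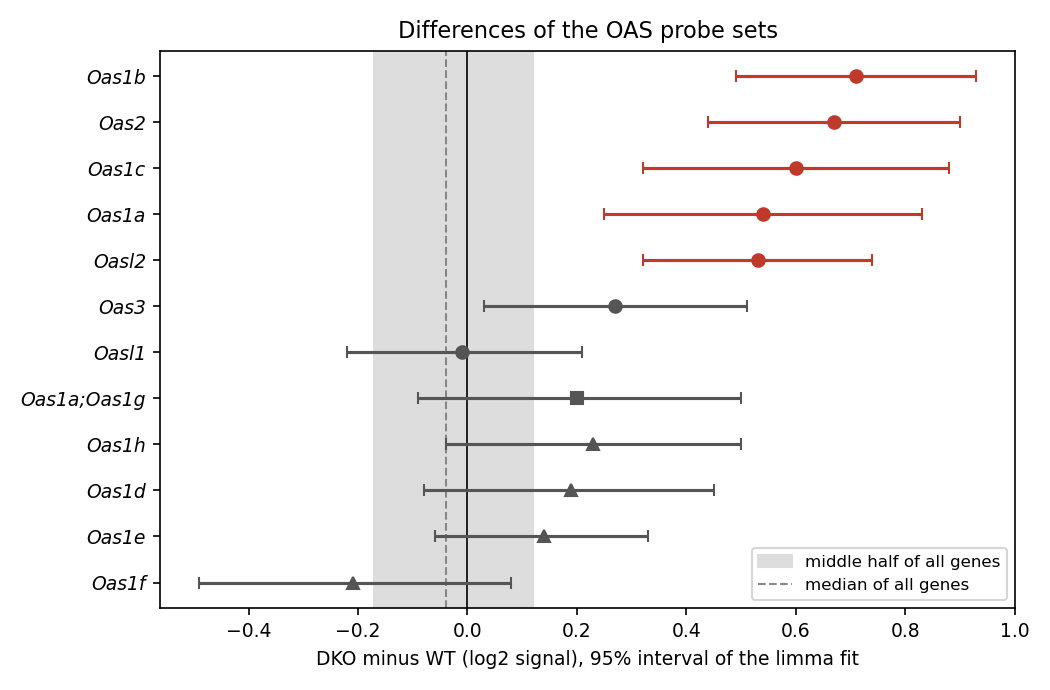
DKO minus WT on the log2 scale for 12 OAS probe sets, with 95% intervals of the limma fit; circles are members, the square is the shared row, triangles are other Oas1 paralogs, and red marks an adjusted p under 0.05. The grey band, from -0.17 to 0.12, runs from the lower to the upper quartile of all genes; the intervals of the 5 genes in red lie wholly above it.

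Within the groups no shared variation of the 5 genes that rose was seen, though 3 samples a group leave this imprecise. Over their 10 pairs, Pearson's r between deviations from the group means of the 6 arrays was -0.92 to 0.49, with a median of -0.09, and 4 pairs were positive. As a description, the mean deviation of the 7 members from their own averages was 0.16, 0.26 and 0.29 in DKO replicates 1, 2 and 3 and -0.26, -0.20 and -0.24 in WT replicates 1, 2 and 3. No single sample carried the gap between the groups.

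Of the 3 measured genes on each side of both OAS clusters, 12 in all, none rose and 1 fell, where 9.71% of all genes rose and 7.69% fell, too few genes to set them apart. The gene that fell was the RNA helicase gene Ddx54, which fell by 0.61 (SE 0.0981, adjusted p = 0.00287). Dtx1 and Rasal1, which lie with it on the Oas2 side, differed by -0.21 and -0.11, and Rph3a, Ptpn11 and Rpl6, on the other side, by -0.12, -0.24 and -0.15. Ptpn11 passed at -0.40 with the trend over gene span and signal removed (adjusted p = 0.0332; the alternatives gave 0.0332 to 0.439). Around the Oasl genes, Sppl3 and Acads differed by 0.10 and 0.01, and 4 unnamed or predicted genes by -0.08 to -0.21.

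Of the partners of the pathway, 4 of 6 listed genes were measured and none passed in limma, nor at an unadjusted p under 0.05. Abce1, best known for ribosome recycling, differed by 0.09 (adjusted p = 0.663). Pde12, a phosphodiesterase that degrades oligoadenylates, differed by 0.12, and its signals of 6.37 to 6.78 in DKO and 6.32 to 6.53 in WT overlapped. Akap7 and Cnp, whose proteins carry phosphodiesterase folds related to each other, differed by 0.18 and 0.05. The 95% intervals of these 4 genes reached from -0.17 to 0.41.

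In all, 118 genes beside the members were listed in 7 groups around the pathway, and 105 were measured. Of these 105 genes, 30 rose (28.6%) and 4 fell (3.81%), beside 9.71% and 7.69% of all genes. The genes that fell were the myeloid factor gene Irf8, the cytokine inhibitor gene Socs3, the antiviral gene Bst2 and the exosome subunit gene Exosc2. Without the dimmest 50% of genes 1995 genes rose, beside 1936 of all 19938, so a larger share was called there. With that filter 31 listed genes rose and 4 fell, and how many listed genes it left was not counted. The signalling, sensor, antiviral and RNA decay lists had mean log2 signals of 6.67 to 7.79 in WT, above the WT array medians of 5.89 to 5.91. For these bright lists 9.71% is therefore a low comparison. The lists were chosen with earlier results of these data known, so these shares are descriptions.

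Of 16 measured ligand genes 1 rose (6.25%, beside 9.71% of all genes) and none fell, and the median difference was -0.07. The one that rose was Ifnb1, which encodes interferon beta, from 4.42 ± 0.07 in WT to 4.78 ± 0.10 in DKO (adjusted p = 0.0255). It did not pass without DKO replicate 1, 2 or 3 or without WT replicate 1 or 2 (adjusted p = 0.0544 to 0.096). Its WT mean lay below the lower quartiles of the arrays, 4.63 to 4.66, so it was dim.

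Of 21 measured genes of interferon receptors and signalling, 7 rose (33.3%, beside 9.71% of all genes), 2 fell and 12 did not pass. Their median was 0.22. Il10rb, a chain shared by the receptors of interleukin 10 and interferon lambda, rose 1.83-fold (adjusted p = 0.00168), and Pias1, which encodes a SUMO ligase that restrains cytokine signalling, rose by 0.64. Usp18, an interferon-induced protease that damps the receptor, rose 1.75-fold (7.20 ± 0.04 against 6.40 ± 0.28, adjusted p = 0.00328). Irf8 fell by 0.87 (adjusted p = 0.00173). Along the route to the OAS promoters, the receptor chain Ifnar1 rose by 0.42 and the kinase Jak1 by 0.39 (adjusted p = 0.0175 and 0.0177), while Ifnar2 differed by 0.22 and Tyk2 by -0.14 without passing. Of the factors that act at the response element, Stat2 differed by 0.27 (adjusted p = 0.137) and Irf9 by -0.07 (0.613), and neither passed.

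In the list of other double-stranded RNA sensors and effectors, which also holds adaptors such as Mavs, 4 of 13 measured genes rose (30.8%, beside 9.71% of all genes). None fell, and the median was 0.23. Those that rose were Prkra, an activator of the kinase PKR, Ddx58 and Ifih1, which encode the receptors RIG-I and MDA5, and the helicase gene Dhx36. Their rises were 0.75, 0.66, 0.75 and 0.33. Ifih1 was at 8.12 ± 0.07 in DKO and 7.37 ± 0.29 in WT (adjusted p = 0.00504). The smallest of these rises, that of Dhx36 (adjusted p = 0.0391), missed the threshold in 10 of 17 alternatives: in 7 the difference stayed at 0.28 to 0.38, and it shrank with quantile normalisation (0.19), cyclic loess (0.22) and the trend removed (0.16). Eif2ak2, the gene of PKR itself, differed by 0.34 without passing (adjusted p = 0.0971).

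Antiviral interferon-stimulated genes rose in 13 of 29 measured cases (44.8%, beside 9.71% of all genes), with 1 fall and a median of 0.26. Ddx60, a helicase gene, rose 2.24-fold (7.96 ± 0.12 against 6.80 ± 0.21, adjusted p = 0.000326) and Trim30a 2.21-fold (10.43 ± 0.09 against 9.28 ± 0.11, adjusted p = 0.000101). Herc6, a ligase gene, and Samhd1, which encodes a nucleotide hydrolase that restricts viruses, rose by 0.99 and 0.87. Samd9l, Xaf1, Parp14 and Dtx3l rose by 1.09, 1.06, 0.68 and 0.67. Among the 15 genes that did not pass, Mx1 differed by -0.16, Mx2 by 0.15, Ifit3 by -0.27, Rsad2 by 0.24 and Cxcl10 by -0.08. Differences between genes of the list were not tested. Ifit1 rose by 0.36 (adjusted p = 0.0171) and Bst2, which encodes tetherin, fell by 0.54 (adjusted p = 0.00533). The rises of the 5 OAS genes, 0.53 to 0.71, lay inside the span of this list, -0.54 to 1.16.

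RNA decay enzymes, the cell's other means of degrading RNA, were measured for 18 genes. Of these, 5 rose (27.8%, beside 9.71% of all genes) and 1 fell, and their median was 0.19. The list was bright, with a mean log2 signal of 7.74 to 7.79 in WT. Brighter genes were called more often, so 9.71% is a low comparison for its share. The exonuclease genes Xrn2 and Xrn1 rose by 0.72 and 0.68 (adjusted p = 0.00127 and 0.00308) and Zc3hav1, which encodes an antiviral protein that steers viral RNA to decay, by 0.64. Cnot1, the scaffold gene of a deadenylase complex, rose by 0.55 (adjusted p = 0.00439) and was at 0.23 without passing once the trend over gene span and signal was removed (adjusted p = 0.121, in a range of 0.00136 to 0.121).

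**Figure D3:**
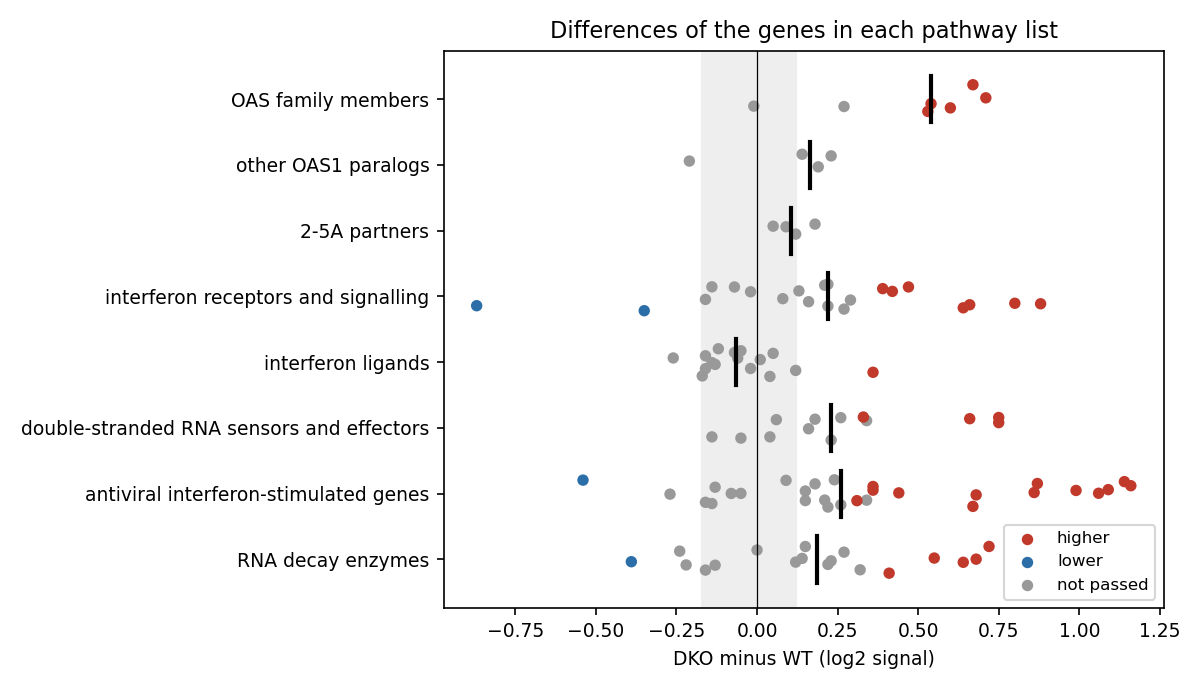
DKO minus WT on the log2 scale for each measured gene of 8 lists; red points rose, blue points fell, grey points did not pass, black bars are list medians and the grey band spans the quartiles of all genes. The OAS members have a median of 0.54 and the interferon ligands one of -0.07.

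The signals of the targeted genes Runx1 and Runx3 were read beside the labels. Runx1 signal was higher in the DKO-labelled samples, by 0.82 (adjusted p = 0.000427), and Runx3 differed by -0.15 without passing. The probes are summed over the whole gene, which is no check of a deleted exon, so DKO here means labelled DKO and every direction is that of the labels. Of 8 measured KSL markers 3 rose, 2 fell and 3 did not pass. Beside this count and those of the marker lists that follow, 9.71% of all genes rose and 7.69% fell. Kit, Cd34, Hlf, Meis1 and Flt3 were above the upper quartiles of the arrays, 7.21 to 7.30, in both groups, while Procr and Mecom had means of 6.60 to 7.26. Slamf1 was at 7.38 in DKO and 5.43 in WT, the latter under the array medians. Slamf1 rose 3.87-fold, Meis1 by 0.88 and Kit by 0.73, and Flt3 fell by 1.32 and Mecom by 0.67. Of plasmacytoid dendritic cell genes 1 of 8 rose and 1 fell, and of macrophage and dendritic cell genes none of 14 rose and 1 fell. The mean log2 signal was 6.02 to 6.08 in DKO and 6.15 to 6.20 in WT over the first list, and 5.47 to 5.54 and 5.57 to 5.68 over the second. Of those 14 genes 1, Adgre1, was under each array's lower quartile, and Cd68 was the brightest after Flt3, at 7.12 in DKO and 7.42 in WT. Clec9a was at 6.32, 5.91 and 4.68 in DKO and 4.6, 4.32 and 4.76 in WT, and its difference, 1.08, missed the threshold (adjusted p = 0.0569). Mast cell and basophil genes (10, of which 4 rose and 3 fell) were at 6.83 to 6.92 in DKO and 6.25 to 6.46 in WT, and megakaryocyte genes (7, of which 4 rose and none fell) at 7.30 to 7.91 and 6.85 to 7.02. The mast cell list did not move as one: Cpa3 rose by 3.43 and Ms4a2 by 2.24, while Mcpt8 fell by 1.32, Prss34 by 0.82 and Fcer1a by 0.68, and the median was 0.16. Of the megakaryocyte list Gp5 rose by 2.80 and Treml1 by 1.5, and Pf4 differed by -0.51 without passing. Neutrophil and monocyte genes (11, of which 2 rose and 1 fell) differed by -0.78 to 3.26. B cell genes (9, of which none rose and 2 fell) differed by -1.59 to 0.08. T and NK cell genes (11, of which none rose and 1 fell) differed by -2.02 to 0.18. Erythroid genes (7, of which none rose and 2 fell) differed by -2.02 to 0.10. The part of these marker changes in the OAS rises was not tested.

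**Figure D4:**
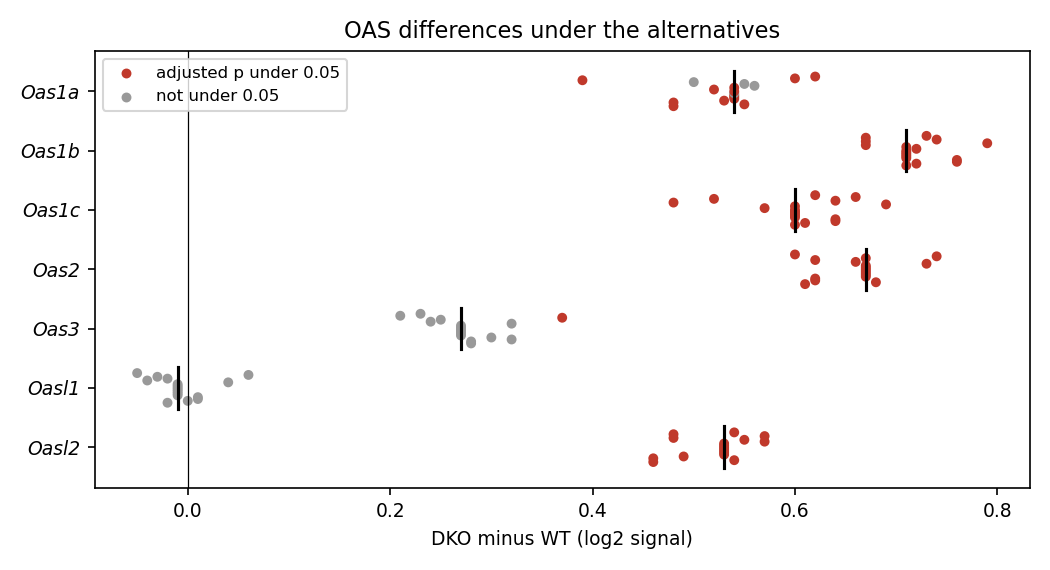
DKO minus WT on the log2 scale of the 7 OAS genes under each alternative setting (points; red where the adjusted p was under 0.05) beside the value reported (black bar). Oas1b, Oas1c, Oas2 and Oasl2 stay red at every setting run, Oas1a turns grey in 4, and Oas3 turns red in 1.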

How the data were processed

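Expression was measured on Affymetrix GeneChip Mouse Gene 1.0 ST arrays. The deposited values are log2 signals, with a single value for each probe set on each array. The titles of the samples name gene-level RMA, and the design text names MAS 5.0 as a preliminary step. Per the submitters' processing notes the software was Affymetrix Expression Console 1.0. For genome build and background settings: not given in the sources used here. The array medians were 5.88 to 5.91, as for log2 RMA values, and no array duplicated another (smallest SD of a difference between 2 arrays 0.186). Precision is limited by having 3 arrays a group.

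Of 35556 probe sets, 21789 named 1 gene symbol in the platform annotation, 1621 several and 12146 none; the brightest single-symbol probe set of each gene gave 19938 genes, 19856 of them with a RefSeq entry. DKO was compared with WT by limma 3.58.1 in R 4.3.3 (lmFit and eBayes, two-sided, 5.52 prior and 4 residual degrees of freedom), with no filter and Benjamini-Hochberg adjustment over the genes tested. The fit was tested on simulated data. The limma p-values rest on the spread between 3 samples a group, moderated with that of all genes. Since the WT samples were pools of 3 mice and pooling of DKO is not stated, this need not be the spread between mice. An SD beside a mean is over 3 samples. Named are the members, their partners, paralogs and neighbours, and of each other list the up to 4 genes with the smallest adjusted p that passed; Ifnar1, Ifnar2, Jak1, Tyk2, Stat2, Irf9, Socs3, Exosc2, Eif2ak2, Mx1, Mx2, Ifit1, Ifit3, Rsad2, Cxcl10, Bst2, Samd9l, Xaf1, Parp14, Dtx3l and the cell type markers are named beyond the rule, picked with their values known. The members and lists were chosen with earlier results of these data known. Some genes of the lists are not reported here. Exact permutation tests over the samples compared probe sets within arrays. Promoter sequences and gene order come from RefSeq, GRCm38.p6. Alternatives were 3 further normalisations, removal of a trend over gene span and signal, filters on dim genes, other probe set choices, other limma settings, a replicate block and leaving out each sample.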

Additional observations from a re-analysis of the deposited data

How the results depend on the processing

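Of 118 values of the 7 OAS members under 17 alternatives, 108 kept direction and side of the threshold, 4 lost the call, 1 gained it and 5 turned sign. The 4 losses were of Oas1a, with all probe sets tested (0.54, adjusted p = 0.0594) and without each DKO replicate in turn; leaving out single samples moved it between 0.39 and 0.62. The gain was of Oas3, which spanned 0.21 to 0.37 when single samples were left out and could not be tested without the dimmest 50% of genes, being among them. The 5 turns were of Oasl1, at 0.00 with median centring, 0.01 with cyclic loess, 0.01 with the trend removed and -0.05 to 0.06 without single samples. Runx3 passed with the trend removed (-0.29). With 5 samples the count of genes that rose was 1250 to 1868, of those that fell 843 to 1388, of pathway genes that fell 2 to 3; the last was also 2 with all probe sets tested. Fewer samples leave fewer degrees of freedom. The replicate numbers did not pair the samples: deviations of same-numbered samples correlated at -0.009, -0.095 and -0.042, and 0 of 3 DKO samples correlated best with their own number. With the replicate block 1772 genes rose, 1272 fell and 2 pathway genes fell, and the call of no member changed. The alternatives were also read for 37 other genes: those named by the rule from the lists, and the partners, paralogs and neighbours. Genes named only beyond the rule, such as Ifnar1, Jak1, Socs3 and Exosc2, were not among them. Of 616 values of these 37 genes 589 kept direction and side, 16 lost the call and 1 gained it. The 10 that turned sign were uncalled: Abce1 (-0.01 with quantile normalisation, 0.00 with cyclic loess, -0.10 with the trend removed), Akap7 (-0.05) and Sppl3 (-0.09) with the trend removed, and, with single samples left out, Abce1 (-0.02 to 0.20), Acads (-0.05 to 0.05), Cnp (0.00 to 0.13) and 2610524H06Rik (-0.17 to 0.04). The cause was not tested. No alternative moved the median of all genes by as much as 0.1, its value lying between -0.051 and 0.017.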

Other observations

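For each of the 5 OAS genes whose values spanned at least 0.5, the 5 most alike genes by Pearson's r over the 6 arrays were listed, out of 6613 genes with such a span. All 25 had r of 0.99 to 0.999, all 25 rose in the DKO samples, and 1 of them, Cnot1, was on a list of the pathway. Within the groups their r was 0.848 to 0.994. Picking genes by r over the 6 arrays selects those higher in DKO and alike within the groups, so neither is a separate result. The 6 points fall into 2 groups, so no test is given and the names describe these arrays alone. Most like Oas2 were Sacm1l, a lipid phosphatase gene, Pex2, a peroxisome gene, St3gal4, Trim32 and Cnot1. Most like Oas1b were Traf6, an adaptor of innate immune receptors, Arg1, Casp1, the inflammasome protease gene, Lrrc40 and Aff1. Oas1a was matched by Trnt1, Actr3, Lcmt2, Ralb and Dhrs7, Oas1c by Capn2, Mylip, Tmprss3, Ubash3b and Mamdc2, and Oasl2 by Tmbim4, Pyroxd1, Tia1, Pygl and Smarcad1.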
